A study of Homo sapiens with 4 samples.

Results

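Semaphorins, plexins and neuropilins form a guidance system of ligands and receptors, and the levels of its 31 human genes were examined in T24 cells with and without overexpressed CBX7. The 31 genes were taken by symbol from a table of 60623 genes, and 25 of them had enough counts to be compared between the groups. The family was chosen by the higher level of one ligand, SEMA6B, in the same contrast that is described here. The values of SEMA6B are therefore a description and carry no test.

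Semaphorins are extracellular ligands that share a sema domain and were first known as guidance cues of growing axons. Class 3 members are secreted, members of classes 4, 5 and 6 span the membrane, and the class 7 member is held at the surface by a lipid anchor. Plexins are their signalling receptors and act on small GTPases and thereby on the cytoskeleton and on adhesion to the matrix, while neuropilins bind most class 3 ligands and present them to plexins of the A group. In epithelial tissues and their tumours the same genes are known for roles in migration, invasion and vessel growth.

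T24 cells derive from a bladder carcinoma and are an established human line, and they were grown in RPMI with 10% serum. RNA was sequenced in 4 libraries, 2 of control cells and 2 of CBX7-overexpressing cells. CBX7 is a chromodomain subunit of the Polycomb repressive complex PRC1, which takes part in gene silencing. For overexpression the study placed full-length CBX7 in a pCDH-3xFLAG vector. The counts of CBX7 do not separate the introduced gene from the cell's own locus. What vector the control cells carried, and whether the libraries of a group came from separate cultures, are not given in the sources used here, so p-values measure only the spread between these libraries, which may be technical.

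The estimated counts summed to between 20800910 and 25135488 per library, and a count of 0 allows a level of up to 0.119 to 0.144 CPM (counts scaled to the size of the library), which covers counting error only. CBX7 itself had TMM-normalized levels of 10.9 and 9.67 CPM in control cells and of 1774 and 1595 CPM in CBX7-overexpressing cells. CBX7 rose by 7.35 on the log2 scale with a standard error of 0.18 (edgeR's quasi-likelihood test, Benjamini-Hochberg adjusted p = 0.000584), and the level matched the label in all 4 libraries. The keratins KRT7, KRT8 and KRT18 lay between 853 and 1465 TPM (relative abundance scaled by transcript length), whereas 9 of 16 epithelial and urothelial markers, among them the 4 uroplakins, CDH1, GATA3 and TP63, were under 1 TPM in every library. The summed TPM of these 16 markers was 3182 to 3281 in control cells and 3385 to 3761 in CBX7-overexpressing cells, and that of the mesenchymal genes VIM and CDH2 was 2782 to 2807 and 2240 to 2281. Most of these sums came from KRT7, KRT8, KRT18 and VIM. KRT7 overlapped between the groups (1216 and 1197 against 1465 and 1214 TPM), as did CDH2 (50.2 and 56.5 against 34.1 and 52.8 TPM). All 3 endothelial, all 3 neuronal and 4 of 5 immune markers were under 1 TPM in every library, the exception being CD68 at 6.29 to 11.5 TPM. One library stood apart: across 11077 well-covered genes the ratio of CBX7 replicate 1 to control replicate 1 fell with gene length (Spearman correlation -0.62, a description across genes of 1 pair of libraries), while the ratio of CBX7 replicate 2 to control replicate 2 did not (0.04). With GC content the values were 0.41 and 0.07. Most receptors of the family have long transcripts, so the medians of ligand classes and receptors are given below for both pairs of libraries.

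RefSeq promoter entries on GRCh38.p14 were found for 27 of the 31 genes, with 48 start sites among them. SEMA3A, SEMA6A, SEMA6B and NRP1 had no entry. The 250 bases before a start held a median of 15 CpG dinucleotides over the 48 windows, against 11 over all 35116 windows in the table. A GC box, searched as GGGCGG or its reverse complement CCGCCC and counted without overlap between matches of the same word, occurred in 30 of the 48 windows (62.5%) and in 42.6% of all windows. Upstream stretches are shown for the members with the highest and the lowest log2 fold change after SEMA6B was set aside, SEMA3F and SEMA3C, because they mark both ends of what the rest of the family did. Only bases before the first annotated exon base are printed, 5′ to 3′ on the strand of the gene, with GC boxes in capitals. The SEMA3F stretch is chr3:50154808-50155044 on the plus strand and the SEMA3C stretch is chr7:80922390-80922639 on the minus strand.
SEMA3F: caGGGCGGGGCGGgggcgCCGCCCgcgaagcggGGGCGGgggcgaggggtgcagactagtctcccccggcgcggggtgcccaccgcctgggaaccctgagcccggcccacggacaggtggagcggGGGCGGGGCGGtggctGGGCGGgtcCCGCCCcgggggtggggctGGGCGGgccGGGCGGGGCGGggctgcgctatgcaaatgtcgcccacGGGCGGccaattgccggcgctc
SEMA3C: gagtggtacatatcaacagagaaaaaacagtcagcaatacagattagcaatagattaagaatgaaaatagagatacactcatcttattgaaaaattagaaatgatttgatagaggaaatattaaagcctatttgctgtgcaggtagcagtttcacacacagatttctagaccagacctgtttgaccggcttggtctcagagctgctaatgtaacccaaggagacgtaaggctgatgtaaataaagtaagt
The full window of this SEMA3F start held 34 CpG and 9 GC boxes, and that of the SEMA3C start held 2 CpG and 0 GC boxes. The genes themselves do not differ in this way, since both have starts of either kind. Of the other SEMA3F starts, 1 had 42 CpG and 2 GC boxes (chr3:50155074-50155323) and 1 had 2 CpG and 0 GC boxes (chr3:50158769-50159018), and the other SEMA3C start had 39 CpG and 3 GC boxes (chr7:80919052-80919301). The counts do not tell which start was used. A match is a description of the letters and not of a bound site.

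The family was broadly present in T24 cells. Of the 31 genes, 22 were at 1 TPM or more in every library, which was 13 of 20 ligands and 9 of 11 receptors. TPM is scaled by transcript length, so levels of different genes are compared on this scale only. In control cells the order of mean TPM began with SEMA4B at 126.3, followed by the receptor PLXNB2 at 99.8, SEMA3C at 60.1, SEMA7A at 51.6 and NRP1 at 39.4. SEMA6B stood in the middle with 6.58 TPM, between PLXNA2 at 8.15 and NRP2 at 5.8. Of the 21 neighbouring pairs in this order, 8 had control libraries that overlapped and so were not set apart by their spread. These were PLXNA1 with PLXNA3, PLXNA3 with PLXND1, SEMA4C with PLXNB3, PLXNB3 with PLXNB1, SEMA3A with SEMA4G, SEMA3D with SEMA3F, SEMA3F with SEMA4D, and SEMA3E with SEMA6C.

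**Figure D1:**
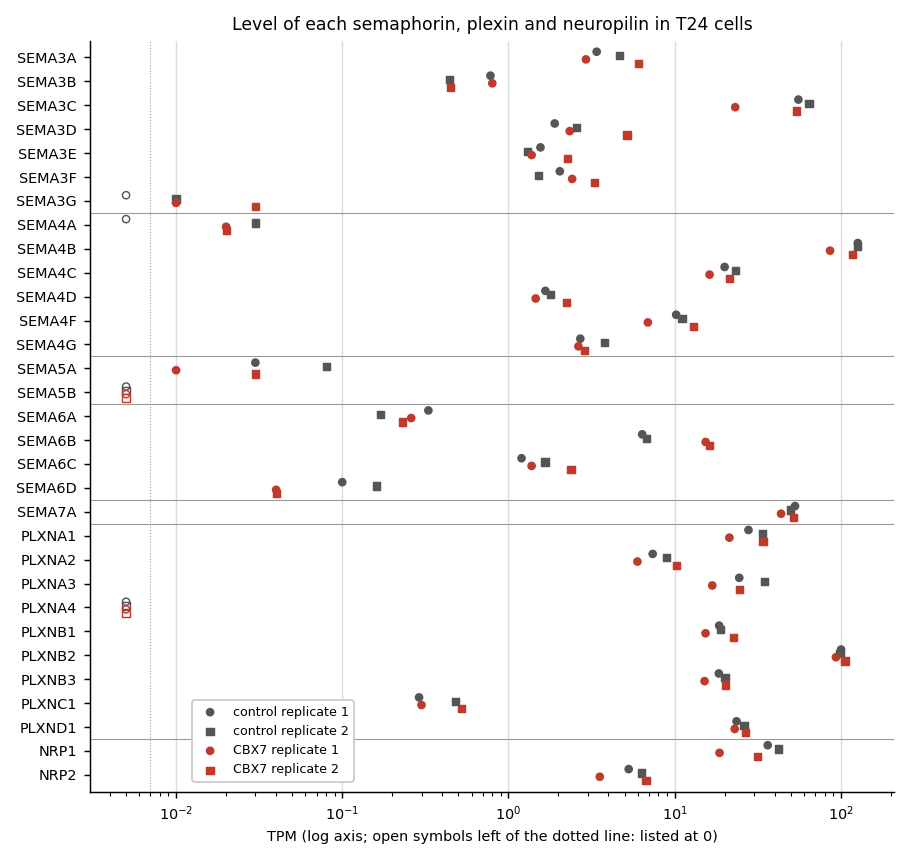
Deposited TPM (log axis) of each of the 31 genes in the 2 control libraries (grey) and the 2 CBX7-overexpressing libraries (red), with circles for replicate 1 and squares for replicate 2, and open symbols for genes listed at 0. SEMA6B lay at 6.39 and 6.77 TPM in control cells and at 15.4 and 16.2 TPM in CBX7-overexpressing cells, whereas for most other genes grey and red symbols are interleaved.

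SEMA6B, a transmembrane class 6 ligand known to bind the receptor PLXNA4, was higher in both CBX7-overexpressing libraries than in either control library. The gene (ENSG00000167680) is encoded on the minus strand at chr19:4542593-4559808 of GRCh38, and no other annotated gene overlaps it. Its estimated counts were 407 and 328.1 in control replicates 1 and 2 and 1268 and 978.4 in CBX7 replicates 1 and 2. After TMM normalization these were 17.1 and 15.6 CPM against 52.5 and 43.8 CPM, or 16.3 ± 1.01 CPM and 48.1 ± 6.17 CPM (SD, n = 2 libraries each). The groups were far apart compared with the distance between libraries of 1 group, and the fitted log2 fold change was 1.56 (standard error 0.16), a 2.95-fold higher level. The log2 ratio was 1.62 between the libraries numbered 1 and 1.49 between those numbered 2. On the deposited TPM scale the log2 ratio of the group means was 1.26, smaller than on the count scale. With each library corrected for its trend with gene length alone it was 1.59, and with length and GC content together 1.32 (standard error 0.081); SEMA6B transcripts are rich in G and C, at 67.7%. Over the 16 fits that were run, leaving out each library included, the log2 fold change stayed between 1.32 and 1.68. By log2 fold change SEMA6B ranked 87 of the 14862 genes tested and 21 of the 12754 genes with at least 1 CPM in every library.

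Within its class SEMA6B was the most abundant member in every library. It made up 79.7% and 77.3% of the summed class 6 TPM in control cells against 90.2% and 85.9% in CBX7-overexpressing cells. Its share of the TPM of all 20 ligands was 2.22% and 2.26% in control cells against 7.42% and 5.40% in CBX7-overexpressing cells. The ligands together summed to 288.0 and 299.7 TPM in control replicates 1 and 2 and to 207.6 and 299.7 TPM in CBX7 replicates 1 and 2, so the larger share in CBX7 replicate 1 was taken of a smaller sum, and SEMA6B itself was not higher there (15.4 TPM) than in CBX7 replicate 2 (16.2 TPM). Among the ligands it ranked 6 in both control libraries and 5 in both CBX7-overexpressing libraries.

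No member of the family was called in the reported fit, the other class 6 genes included. SEMA6C, whose transmembrane protein binds plexins of the A group, had 3.44 and 4.81 CPM in control cells and 4.68 and 5.55 CPM in CBX7-overexpressing cells, groups that overlapped (log2 fold change 0.31, standard error 0.25, adjusted p = 0.951, edgeR). The value of SEMA6C was 0.085 without control replicate 1 and 0.571 without control replicate 2. SEMA6A, a guidance ligand that binds PLXNA2 and PLXNA4, was near the lower limit of detection, with 16 and 7 counts in control cells against 12 and 10 in CBX7-overexpressing cells. SEMA6D, which binds PLXNA1, had 11 and 5 counts in control cells against 5 and 3 in CBX7-overexpressing cells and was too low to be compared. SEMA6A and SEMA6D share stretches of the genome with genes on the opposite strand, and the sources used here do not say whether reads were counted by strand.

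Across the family, 0 of the 25 members compared passed an adjusted p of 0.05 (edgeR's quasi-likelihood test, Benjamini-Hochberg adjustment over all 14862 genes), as did 3 of all genes (0.0202%). With SEMA6B set aside because it chose the family, 1 of the other 24 members, SEMA3F, had an unadjusted p under 0.05, where 4.74% of all genes reached it. DESeq2's Wald test called 0 of these 24 members at an adjusted p under 0.05, where 0.451% of all genes were called. Both CBX7-overexpressing libraries lay above both control libraries for 4 members (SEMA6B, SEMA3F, SEMA3E and PLXND1), a pattern that 15.4% of all genes had, and below for 5 (SEMA3C, SEMA4B, NRP1, PLXNA3 and PLXNB3), against 14.8% of all genes. This split depended on the correction, with 11 members above and 4 below after that for length (2524 and 2909 of all 14862 genes) and 8 above and 7 below after that for length and GC content (2688 and 3215 of all genes). The median log2 fold change was 0.05 over the 25 members, 15 of them positive, and 0.00 over all genes tested. After the correction for length and GC content the median of the members was -0.05 with 11 of 25 positive, so the median has no settled sign. These counts describe the members and nothing is read from them. An exact permutation test (two-sided) of 1 gene over 2 and 2 libraries cannot go below 0.333, and the tests used borrow their estimate of spread from all genes.

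The calls of the members other than SEMA6B turned on which library was left out, where the remaining library of a group is assumed to vary like the other group. Without CBX7 replicate 2, 8 of them passed the adjusted threshold (SEMA3F higher, and SEMA3C, SEMA4B, PLXNA1, PLXNA3, PLXNB3, NRP1 and NRP2 lower), but so did 35.5% of all genes. Without CBX7 replicate 1 it was 3 members, all higher (SEMA3F, SEMA3D and PLXNA2), and 2.59% of all genes. SEMA3F was not called without control replicate 1 or without control replicate 2, although its log2 fold change was then 0.88 and 0.77.

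**Figure D2:**
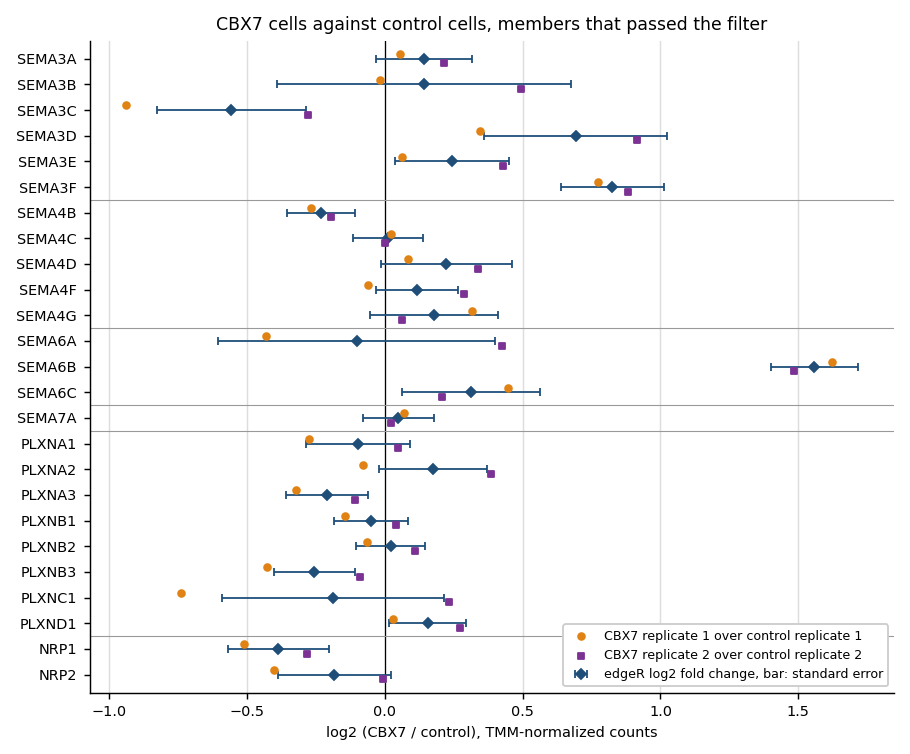
Log2 fold change of CBX7-overexpressing over control cells for the 25 members that passed the filter: diamonds with bars are the edgeR estimate and its standard error, circles the ratio of the libraries numbered 1 and squares that of the libraries numbered 2. SEMA6B, which chose the family, lies at 1.56, and the other 24 members lie between -0.56 (SEMA3C) and 0.82 (SEMA3F). Most circles of the receptors lie to the left of their squares.

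Among the secreted class 3 ligands, SEMA3F was the member nearest to SEMA6B. SEMA3F is a ligand of NRP2 and is known as a candidate tumour suppressor. It had 4.02 and 3.72 CPM in control cells and 6.87 and 6.85 CPM in CBX7-overexpressing cells, with a wide gap between the groups compared with the distance between libraries. The log2 fold change was 0.82 (standard error 0.19), but it did not pass the correction over all genes (adjusted p = 0.514, edgeR), and it was 0.70 after the correction for length and GC content. On the TPM scale SEMA3F was at 2.04 and 1.52 in control cells and at 2.42 and 3.30 in CBX7-overexpressing cells. An annotated gene on the opposite strand overlaps it.

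SEMA3C, which acts in heart outflow tract development and in tumour cell migration, was the dominant class 3 ligand, with 70.1% to 86.0% of the summed class 3 TPM in the 4 libraries. Its levels were 168.6 and 186.3 CPM in control cells and 87.9 and 153.4 CPM in CBX7-overexpressing cells. Both CBX7-overexpressing libraries were below both control libraries, but they differed more from each other than the control libraries did. The log2 fold change was -0.56 (with a standard error of 0.27, adjusted p = 0.951, edgeR). Between libraries of the same number it was -0.94 for number 1 and -0.28 for number 2. It was -0.21 without CBX7 replicate 1 and -1.01 without CBX7 replicate 2. The correction for length left it at -0.59, and that for length and GC content at -0.54.

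SEMA3D showed the opposite dependence. This secreted ligand, known from heart and vein patterning, had 9.51 and 12.2 CPM in control cells and 12.1 and 23.1 CPM in CBX7-overexpressing cells, with CBX7 replicate 2 high and the other CBX7 library just under the higher control library. The log2 fold change was 0.69 (with a standard error of 0.33, adjusted p = 0.951, edgeR), 1.09 without CBX7 replicate 1 and 0.16 without CBX7 replicate 2. SEMA3A, the classical repellent of axons that binds NRP1, had 17.4 and 19.6 CPM in control cells and 18.0 and 22.7 CPM in CBX7-overexpressing cells, and the groups overlapped. SEMA3E, which binds PLXND1 without a neuropilin, had 4.53 and 4.10 CPM against 4.72 and 5.51 CPM, higher in both (log2 fold change 0.24, standard error 0.21, and 0.38 and 0.41 after the corrections for length and for length and GC content). The value of SEMA3E was 0.355 without CBX7 replicate 1 and 0.127 without CBX7 replicate 2. On the TPM scale its groups overlapped, at 1.56 and 1.30 TPM against 1.38 and 2.28 TPM. SEMA3B, like SEMA3F a candidate tumour suppressor of the short arm of chromosome 3, had 33 and 12 counts in control cells against 33 and 18 in CBX7-overexpressing cells, and SEMA3G, a ligand of vessel walls, had 0, 1, 1 and 2 counts in the 4 libraries. The adjusted p was between 0.951 and 0.968 for these members that were compared, apart from SEMA3G, which was too low.

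Class 4 held the most abundant ligand of the family. SEMA4B, a transmembrane ligand, made up 39.3% to 44.0% of the summed TPM of all ligands in the 4 libraries. Its levels were 264.2 and 269.5 CPM in control cells and 219.4 and 235.2 CPM in CBX7-overexpressing cells, groups that did not overlap. The log2 fold change was small, at -0.23 (standard error 0.12, adjusted p = 0.951, edgeR).

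The other class 4 ligands did not separate the groups. SEMA4C, a ligand of PLXNB2, had 45.6 and 46.8 CPM in control cells and 46.3 and 46.9 CPM in CBX7-overexpressing cells, where the log2 fold change was 0.01 and its standard error 0.13. SEMA4D, the ligand of PLXNB1, had 4.02 and 4.57 CPM against 4.27 and 5.77 CPM. SEMA4F, which was first described in the nervous system, had 30.1 and 27.7 CPM against 28.9 and 33.7 CPM. For SEMA4G the levels were 3.56 and 4.72 CPM against 4.43 and 4.92 CPM, and this gene overlaps the protein-coding gene MRPL43, so its reads are uncertain. SEMA4A, known from immune cells, was nearly absent, with 0, 1, 1 and 1 counts in the 4 libraries. All groups of these members overlapped, and for those compared the log2 fold change lay between 0.01 and 0.22.

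The transmembrane class 5 ligands were hardly detected: SEMA5A had 6 and 15 counts in control cells against 3 and 6 in CBX7-overexpressing cells, and SEMA5B had 0 counts in all 4 libraries, which allows a level of up to 0.119 to 0.144 CPM. SEMA7A, the lipid-anchored ligand that binds PLXNC1 and integrins with the beta-1 subunit, was abundant, with 53.1 and 50.1 TPM in control cells and 43.8 and 51.8 TPM in CBX7-overexpressing cells. On the count scale it had 114.3 and 109.6 CPM against 120.1 and 111.4 CPM (log2 fold change 0.05, standard error 0.13). The 2 scales place CBX7 replicate 1 on opposite sides of the control libraries for SEMA7A, and neither gives a difference beyond the spread.

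**Figure D3:**
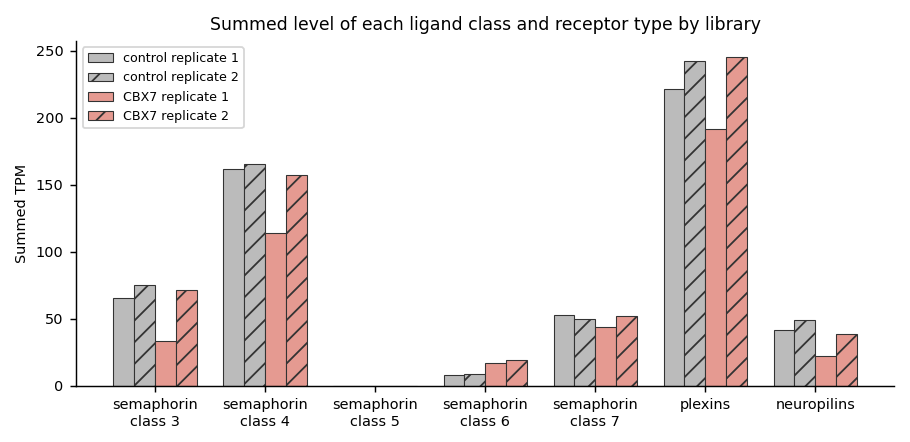
Summed deposited TPM (linear axis from 0) of semaphorin classes 3 to 7, plexins and neuropilins in each of the 4 libraries, with grey bars for control, red bars for CBX7-overexpressing cells and hatching for replicate 2. Class 6 has both red bars above both grey bars (17.1 and 18.8 against 8.02 and 8.76 TPM), but most of it is SEMA6B, which chose the family. Class 4 and neuropilins have both red bars below both grey bars. The bar of CBX7 replicate 1 is the lowest of the 4 in classes 3, 4 and 7, plexins and neuropilins.

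Summed over each class, class 6 was the one in which both CBX7-overexpressing libraries were higher, with 8.02 and 8.76 TPM in control cells and 17.1 and 18.8 TPM in CBX7-overexpressing cells. Most of that sum was SEMA6B, whose higher level chose the family, so nothing is read from it. For class 3 the sums were 65.4 and 75.0 TPM in control cells and 33.1 and 71.8 TPM in CBX7-overexpressing cells. Class 4 summed to 161.5 and 165.8 TPM against 113.7 and 157.2 TPM, lower in both CBX7-overexpressing libraries. The neuropilins summed to 41.7 and 48.7 TPM against 22.2 and 38.3 TPM, also lower in both. On this scale CBX7 replicate 1 was the lowest library in class 3, in class 4 and in the neuropilins. On the count scale the gap was smaller in class 4, where the members compared summed to 347.5 and 353.3 CPM in control cells against 303.3 and 326.5 CPM in CBX7-overexpressing cells, and in class 3 the sums were 205.4 and 226.5 CPM against 131.0 and 212.3 CPM. The deposited TPM were not proportional to the counts between libraries, so the scales can differ.

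The median log2 fold change was 0.19 over the 6 class 3 members compared, 0.06 between the libraries numbered 1 and 0.46 between those numbered 2. Over the 5 of class 4 it was 0.12, with 0.02 and 0.06 for the pairs. Over the 15 ligands it was 0.14, with 0.06 and 0.29 for the pairs. Of the 15 ligands, 12 had a positive value, or 9 after the correction for length and GC content, beside 7472 of the 14862 genes tested. These medians differed between the pairs, and no test was made of them.

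Among the receptors, plexins of the A group serve class 3 ligands through neuropilins and bind class 6 ligands directly. PLXNA4, the receptor best known for SEMA6B, had 0, 0, 1 and 0 counts in the 4 libraries, so it was under the limit of 3 counts in each. PLXNA1 had 194.2 and 213.5 CPM in control cells and 160.4 and 221.0 CPM in CBX7-overexpressing cells. PLXNA2, which also takes class 6 ligands, had 59.4 and 61.01 CPM against 56.2 and 79.7 CPM. For PLXNA1 and PLXNA2 the 2 CBX7-overexpressing libraries lay on either side of the control libraries (log2 fold changes -0.10 and 0.17, standard errors 0.19 and 0.20). After the correction for length the value of PLXNA2 was 0.35, and after that for length and GC content 0.30. PLXNA3 had 86.5 and 89.3 CPM in control cells and 69.1 and 82.9 CPM in CBX7-overexpressing cells, lower in both libraries but not called (log2 fold change -0.21, standard error 0.15, adjusted p = 0.951, edgeR). The value was -0.02 after the correction for length, -0.08 without CBX7 replicate 1 and -0.35 without CBX7 replicate 2. On the TPM scale the PLXNA3 groups overlapped, at 24.53 and 34.95 TPM against 16.87 and 24.59 TPM. PLXNA3 overlaps the protein-coding gene LAGE3.

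Of the plexins of the B group, which bind class 4 ligands, PLXNB2 was the most abundant receptor of the family and nearly equal in all libraries, with 315.0 and 296.7 CPM in control cells and 301.2 and 319.8 CPM in CBX7-overexpressing cells. It made up 34.0% to 43.8% of the summed receptor TPM. PLXNB1, the receptor of SEMA4D, had 45.7 and 44.9 CPM against 41.3 and 46.2 CPM. For PLXNB2 and PLXNB1 the log2 fold changes were 0.02 and -0.05, both inside a standard error of 0.13. PLXNB3 had 36.0 and 33.2 CPM in control cells and 26.8 and 31.2 CPM in CBX7-overexpressing cells, lower in both but by a log2 value of -0.26 whose standard error was 0.15. This was -0.15 after the correction for length and without CBX7 replicate 1, -0.35 after that for length and GC content and -0.38 without CBX7 replicate 2. On the TPM scale the PLXNB3 groups overlapped, at 18.48 and 20.16 TPM against 15.17 and 20.22 TPM. PLXNB3 overlaps the protein-coding gene SRPK3.

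PLXNC1, the receptor of SEMA7A, was scarce, with 33 and 28 counts in control cells against 20 and 35.2 in CBX7-overexpressing cells, and it overlaps the protein-coding gene CEP83. PLXND1, the receptor of SEMA3E known from vessel patterning, had 51.7 and 49.7 CPM in control cells and 52.8 and 60.1 CPM in CBX7-overexpressing cells, higher in both (log2 fold change 0.16, standard error 0.14, 0.25 without CBX7 replicate 1 and 0.06 without CBX7 replicate 2). After the correction for length the value was 0.29 and after that for length and GC content 0.11, while on the TPM scale the groups overlapped, at 23.6 and 26.2 TPM against 23.0 and 26.9 TPM. No plexin was called, and their adjusted p lay between 0.951 and 0.980 (edgeR's quasi-likelihood test, Benjamini-Hochberg adjustment).

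NRP1, the neuropilin that binds SEMA3A and the growth factor VEGFA, was the more abundant of the 2 neuropilins. It had 117.5 and 133.6 CPM in control cells and 82.5 and 109.7 CPM in CBX7-overexpressing cells, and the groups did not overlap. The log2 fold change was -0.39 (with a standard error of 0.18, adjusted p = 0.951, edgeR), -0.51 between the libraries numbered 1 and -0.28 between those numbered 2, and -0.27 after the correction for length and GC content. It was -0.19 without CBX7 replicate 1 and -0.61 without CBX7 replicate 2. NRP2, the neuropilin of SEMA3F and SEMA3C, had 20.8 and 22.6 CPM in control cells and 15.8 and 22.5 CPM in CBX7-overexpressing cells, groups that overlapped.

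The receptors as a group depended on the pair of libraries. The median log2 ratio over the 10 receptors compared was -0.30 between the libraries numbered 1 and 0.04 between those numbered 2, and the fitted median was -0.14. By type, the medians for the pairs were -0.21 and 0.08 over the 8 plexins and -0.46 and -0.15 over the 2 neuropilins. For all 10, after the correction for gene length it was 0.02, and after that for length and GC content -0.08. The trend of CBX7 replicate 1 with gene length moves with these receptor values, and its part in them was not tested beyond the corrections. In a bulk sample, fewer cells with a transcript and less of it per cell cannot be told apart.

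**Figure D4:**
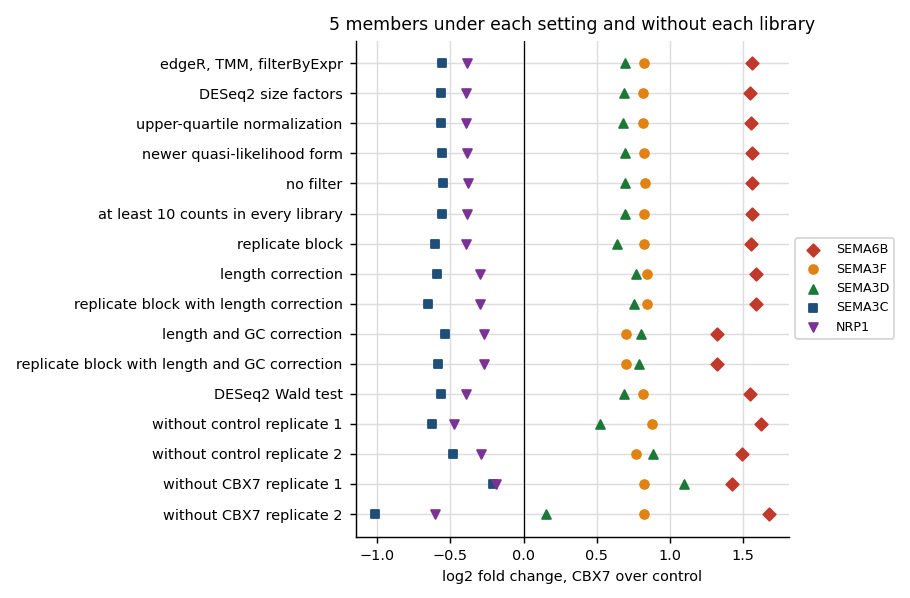
Log2 fold change (CBX7-overexpressing over control) of SEMA6B, SEMA3F, SEMA3D, SEMA3C and NRP1 under each of the 16 fits, 1 line per normalization, filter, correction, test or omitted library. SEMA6B stays between 1.32 and 1.68 and SEMA3F between 0.70 and 0.88, while SEMA3D spans 0.16 to 1.09 and SEMA3C -1.01 to -0.21 depending on which CBX7-overexpressing library is left out.

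Genes that act with the family inside or at the surface of the cell were taken as a list of 44 (binding partners, kinases, small GTPases and cytoskeletal effectors), of which 37 were compared. In edgeR and in DESeq2, 0 of them passed an adjusted p of 0.05, where 0.0202% and 0.451% of all genes did. In edgeR 2 had an unadjusted p under 0.05, where 4.74% of all genes did. FYN, a Src-family kinase that acts downstream of plexins of the A group, was the lower one, with 8.51 and 7.33 CPM in control cells and 4.47 and 4.66 CPM in CBX7-overexpressing cells (log2 fold change -0.80, standard error 0.19, adjusted p = 0.570, edgeR). RHOD, a small GTPase that binds plexins, was the higher one, with 18.5 and 16 CPM against 37.3 and 21.04 CPM (log2 fold change 0.76, standard error 0.29, adjusted p = 0.951, edgeR), but after the correction for length and GC content its value was 0.39. FYN was low in both CBX7-overexpressing libraries, whereas RHOD was high mainly in CBX7 replicate 1. The log2 fold change of FYN was -0.76 without CBX7 replicate 1, -0.83 without CBX7 replicate 2, -0.69 without control replicate 1 and -0.90 without control replicate 2. For RHOD it was 0.29, 1.11, 0.86 and 0.66 in the same order. Without CBX7 replicate 2, 23 of the 37 genes of the list (62.2%) and 35.5% of all genes passed, and without CBX7 replicate 1 it was 2 of 37 (5.41%) and 2.59% of all genes. The kinase FES and the GTPase RND1 had the largest other values, 1.12 and -0.75, but at under 1 CPM in every library, and that of FES was 0.43 without control replicate 1 and 2.31 without control replicate 2. The median log2 fold change of the list was -0.13 with 14 of 37 positive, beside 0.00 over all genes, but it was -0.02 without CBX7 replicate 1, -0.24 without CBX7 replicate 2 and -0.08 after the correction for length. DPYSL4, DPYSL5, CHL1, KDR, TREM2, TYROBP and CD72 were too low to be compared. The last 4 encode partners known from endothelial or immune cells.

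The genes beside SEMA6B on chromosome 19 did not pass the test. Of the 5 compared genes on each side, 0 had an unadjusted p under 0.05 (edgeR), where 4.74% of all genes did. The log2 fold changes ran from -0.30 for FEM1A to 0.47 for AC011498.7, a locus at about 1 CPM (0.71 to 1.78). MYDGF, a secreted growth factor, had 92.4 and 91.1 CPM in control cells and 125.8 and 85.1 CPM in CBX7-overexpressing cells, on either side of the control libraries. Its log2 fold change was 0.20, or 0.45 without CBX7 replicate 2, and that of the antisense locus AC005523.2 was -0.14. FEM1A had 8.68 and 12.0 CPM in control cells and 7.29 and 9.44 CPM in CBX7-overexpressing cells, groups that overlapped. Its log2 fold change was -0.50 without CBX7 replicate 2.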

How the data were processed

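Total RNA of T24 cells was sequenced in 2 control and 2 CBX7-overexpressing libraries. The authors deposited 1 table with an estimated count per gene and library, made by a step not named for this column and not always whole, and TPM values with their group means, and gene lengths. The table also holds the authors' own comparison of the groups (a ratio, its log2, and raw and adjusted p-values), which was not used. The submitters' processing notes name cutadapt 1.9.1, HISAT2 2.0.1, HTSeq 0.6.1, DESeq2 and hg19, without saying which step made which column, and whether reads were counted by strand is not given in the sources used here. Positions and GC content came from GENCODE 29 (GRCh38), which held 96.5% of the table's identifiers, and promoters from RefSeq (GRCh38.p14).

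Expected counts were rounded, filtered by filterByExpr, scaled by TMM and compared by glmQLFit and glmQLFTest at default settings with condition as the only term (edgeR 4.0.16, R 4.3.3), with Benjamini-Hochberg adjustment over 14862 genes. Standard errors are the log2 fold change over the square root of F. The procedure was tested on simulated data. No library repeated another: chi-square per degree of freedom over genes was 6.51 for the control pair and 60.1 for the CBX7 pair. Counts of SEMA3E, SEMA4C, SEMA4D, SEMA4F, SEMA4G, SEMA6B, PLXNA3, PLXNB3 and PLXNC1 were not whole in some library, so those reads may be shared with other genes.

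The alternatives were upper-quartile normalization, the size factors and the Wald test of DESeq2 (1.42.0), the newer quasi-likelihood form, a filter of at least 10 counts in each library or none, a correction for gene length or for length and GC content (the median where a gene had no GC value), a replicate block, another TPM minimum, and each library left out. An unadjusted p under 0.05 was added after seeing the data. The text names all members, CBX7, and, of the pathway list and the neighbours of SEMA6B, those with an unadjusted p under 0.05 and the 2 largest changes in each direction. The members and lists were chosen with earlier results of these data known.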

Additional observations from a re-analysis of the deposited data

How the results depend on the processing

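With 2 libraries a group, calls depended on how the spread was estimated. The number of genes with an adjusted p under 0.05, 3 in the reported fit, was 265 with no filter on low counts, 67 with DESeq2's Wald test, 5 with the correction for length and GC content, 361 with the replicate number as a block, 401 with that block and the length correction and 186 with the block and both corrections. Leaving out each library gave 45 to 5491 genes, with 5491 without CBX7 replicate 2 and 397 without CBX7 replicate 1. Members past that threshold numbered 0 in the reported fit, 1 with no filter, with DESeq2 and with the length and GC correction, 4 with the block (SEMA3C, SEMA3D, SEMA3F and SEMA6B) and with the block and the length correction, 2 with the block and both corrections (SEMA3D and SEMA6B), 2 at an unadjusted p, and 0 to 9 when a library was left out (9 without CBX7 replicate 2, 4 without CBX7 replicate 1). The lone library is then assumed to vary like the other group. SEMA6B, which chose the family, is included in these counts and is not tested by them. Of the 37 genes of the pathway list, 2 passed with the block (FYN and RHOD), 5 with the block and the length correction (also L1CAM, MICAL2 and VEGFA), 0 with the block and both corrections and 1 with no filter (RHOD). The shares of all genes were 2.43% with the block, 2.7% with the block and the length correction, 1.25% with the block and both corrections and 1.01% with no filter. Deviations of libraries with the same number correlated at 0.38 over 14862 genes and at 0.62 over 11077 well-covered genes, but 2 pairs do not establish a pairing and neither labels nor methods give one. Members without overlap numbered 9 (30.2% of all genes), 15 with the length correction (11 higher and 4 lower, 36.6%) and with the length and GC correction (8 higher and 7 lower, 39.7%), and 16 to 22 without 1 library, where 44.7% to 87.2% of all genes did not overlap. At a TPM minimum of 5, 14 members passed in every library in place of 22.

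Of the 25 members, 19 kept one sign in every fit to all 4 libraries and 11 in every fit; SEMA6B and SEMA3F were among the latter. Under the length and GC correction, without and with the block, the log2 fold change turned to -0.100 and -0.063 for SEMA3B, -0.067 and -0.068 for SEMA4C, -0.046 and -0.046 for SEMA7A, -0.028 and -0.027 for PLXNB2 and -0.051 and -0.050 for MYDGF. Under the length correction, without and with the block, it turned to 0.055 and 0.055 for PLXNA1, 0.090 and 0.087 for PLXNB1 and -0.005 and -0.005 for MYDGF. Of the genes named in the text, 16 turned sign when 1 library was left out, with ranges of -0.035 to 0.31 for SEMA3A, -0.35 to 0.92 for SEMA3B, -0.011 to 0.031 for SEMA4C, -0.01 to 0.43 for SEMA4D, -0.003 to 0.23 for SEMA4F, -0.015 to 0.39 for SEMA4G, -0.50 to 0.49 for SEMA6A, -0.003 to 0.10 for SEMA7A, -0.35 to 0.12 for PLXNA1, -0.10 to 0.41 for PLXNA2, -0.14 to 0.032 for PLXNB1, -0.024 to 0.069 for PLXNB2, -0.71 to 0.21 for PLXNC1, -0.46 to 0.057 for NRP2, -0.16 to 0.90 for AC011498.7 and -0.10 to 0.45 for MYDGF. The causes were not tested.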
